A study of Mus musculus with 6 samples.

Results

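Neutrophil granule genes were examined in AE9a leukemia cells from 2 regions of the bone marrow. The gene set held 10 genes of the 54532 in the count table. It was found by symbol, from a list chosen by earlier readings of the counts of these same 6 libraries, so that its spread between libraries and its difference between regions were known at the choice. The early genes, of primary granules, were Elane, Mpo, Prtn3 and Ctsg, and the late genes were Ltf, Camp, Ngp, Lcn2, S100a8 and S100a9. RNA-seq had been done on 3 libraries from the central bone marrow (CBM) and 3 from the endosteal bone marrow (EBM) of C57BL/6 mice with AE9a leukemia. AE9a is a splice form of the AML1-ETO fusion, brought into c-Kit+ marrow progenitors by a retrovirus that also marks the cells with GFP. The leukemia cells came from the third generation of transplanted mice, and the female mice bought for the study were 6 to 8 weeks old at purchase. CBM cells were flushed from femurs and tibias, and EBM cells were then released from the same bones with 2 mg/mL collagenase I at 37 °C for 15 min, a step that the CBM cells did not go through, so region and digestion cannot be told apart. Neither group was treated with a drug or carried an engineered deletion according to the labels. The labels mention cell sorting, but the gate for the sequenced cells is not given in the sources used here, so transcripts of leukemia cells and of other marrow cells carried along cannot be told apart. Whether libraries of a region came from separate mice is not stated, so the spread between them may be partly technical.

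Neutrophils fill their granules in order as they mature. Promyelocytes make the proteins of primary (azurophil) granules, which include myeloperoxidase (Mpo) and the serine proteases neutrophil elastase (Elane), proteinase 3 (Prtn3) and cathepsin G (Ctsg). Myelocytes and later cells make the secondary (specific) granule proteins, such as the iron-binding proteins lactotransferrin (Ltf) and lipocalin 2 (Lcn2), the cathelicidin Camp and the related Ngp. S100a8 and S100a9 encode the subunits of calprotectin, a cytosolic protein abundant in mature neutrophils, and were placed with the late genes although their product is not stored in granules. The fusion protein AML1-ETO is known for holding myeloid cells at an immature stage, and leukemia cells of the AE9a model are described as negative for lineage markers and positive for c-Kit.

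The granule genes together took a small share of the counts in these libraries and varied widely between libraries of a region. In mean log2 CPM, a scale added after the data were seen, the late genes were higher in EBM by 1.56 to 1.96, against SDs of 2.59 to 3.28 between the CBM libraries and 0.98 to 1.30 between the EBM libraries. The early genes were higher in EBM by 1.56 to 1.89 on the same scale, against SDs of 1.43 to 1.95 and 0.72 to 1.74, so their difference between regions was of about the size of the spread within a region. Together the 10 genes took 193, 4993 and 217 counts in CBM replicates 1 to 3 and 1750, 4200 and 753 counts in EBM replicates 1 to 3. This was between 0.00111% and 0.0265% of all counts on genes. Library totals were between 16436526 and 19462964 counts, so the differences between libraries did not follow depth. For all 10 genes the CBM and EBM libraries overlapped, while 15.1% of all genes tested did not overlap (7.47% higher and 7.65% lower in EBM). Of the 10 genes 0 were called between the regions by edgeR's quasi-likelihood test at an adjusted p under 0.05, where 0% of the 13352 genes tested were called. Without adjustment 1056 genes had a p under 0.05, 4.01% of those tested on the higher and 3.9% on the lower side, and 0 of the 10 were among them. With DESeq2, 175 genes (1.39%) passed an adjusted p under 0.05 and 0 of the 10 did, with no adjusted p given for Ltf. Because the genes were chosen with results of these libraries known, their differences between regions are given as a description and without p-values.

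The sequences before the start sites of 8 of the genes are shown, so that the motifs found before early and late genes can be seen beside the genes that lack them. All 10 genes had an entry of 250 bases upstream in the RefSeq annotation of GRCm38.p6, and each printed piece stops where the gene annotated in the count table begins. The entries of Prtn3 and Lcn2 lay within the annotated genes, so nothing of them is printed. Capitals mark matches, on either strand, to GAGGAAGT (the type of site bound by PU.1), to TGTGGT or TGCGGT (RUNX) and to TTNNGNAA (C/EBP), and none of the matches overlapped another. The early genes shown are Mpo, Elane and Ctsg, the last without the PU.1-type letters.
Mpo, chr11:87793534-87793580, plus strand: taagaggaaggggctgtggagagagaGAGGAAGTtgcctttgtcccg
Elane, chr10:79886062-79886246, plus strand: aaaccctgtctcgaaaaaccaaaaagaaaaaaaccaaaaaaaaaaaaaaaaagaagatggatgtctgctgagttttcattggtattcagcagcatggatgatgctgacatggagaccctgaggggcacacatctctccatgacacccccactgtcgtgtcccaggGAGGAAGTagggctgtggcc
Ctsg, chr14:56102575-56102824, minus strand: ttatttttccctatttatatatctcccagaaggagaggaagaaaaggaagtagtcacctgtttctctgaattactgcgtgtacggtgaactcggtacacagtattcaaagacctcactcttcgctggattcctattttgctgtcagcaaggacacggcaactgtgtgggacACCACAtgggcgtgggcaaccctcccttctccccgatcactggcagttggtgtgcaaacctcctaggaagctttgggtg
The late genes shown are Ltf, Ngp, S100a8, S100a9 and Camp, the last without a match.
Ltf, chr9:111019042-111019270, plus strand: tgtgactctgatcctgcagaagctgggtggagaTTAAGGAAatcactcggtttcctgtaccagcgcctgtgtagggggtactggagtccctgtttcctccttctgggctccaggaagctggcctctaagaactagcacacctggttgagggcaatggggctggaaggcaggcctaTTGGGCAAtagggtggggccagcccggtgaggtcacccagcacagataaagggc
Ngp, chr9:110419558-110419746, plus strand: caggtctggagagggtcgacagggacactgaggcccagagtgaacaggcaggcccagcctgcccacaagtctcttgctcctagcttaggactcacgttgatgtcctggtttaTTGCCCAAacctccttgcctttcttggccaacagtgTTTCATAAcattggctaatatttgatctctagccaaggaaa
S100a8, chr3:90668821-90668977, plus strand: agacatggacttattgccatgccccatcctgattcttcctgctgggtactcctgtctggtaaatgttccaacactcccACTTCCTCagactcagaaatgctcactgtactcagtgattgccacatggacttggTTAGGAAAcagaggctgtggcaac
S100a9, chr3:90695722-90695971, minus strand: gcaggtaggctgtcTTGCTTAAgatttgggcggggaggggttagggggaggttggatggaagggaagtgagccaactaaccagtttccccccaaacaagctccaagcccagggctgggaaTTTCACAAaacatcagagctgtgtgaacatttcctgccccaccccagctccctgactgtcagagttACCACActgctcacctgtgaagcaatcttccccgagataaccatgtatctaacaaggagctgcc
Camp, chr9:109849618-109849706, minus strand: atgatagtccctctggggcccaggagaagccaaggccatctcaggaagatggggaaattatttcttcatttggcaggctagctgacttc

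Over the full 250 bases, the PU.1-type letters were present before 3 of the 4 early genes (Elane, Mpo and Prtn3) and 1 of the 6 late genes (S100a8), and before 2.44% of the 32851 entries for all genes. The C/EBP letters were present before 0 of the 4 early genes and 5 of the 6 late genes, and before 36.8% of all entries. RUNX letters, the kind of site that the DNA-binding domain kept in AE9a recognises, were present before Ctsg and S100a9 and before 18.6% of all entries. These matches are descriptions of the letters and were not tested, and the motifs were chosen after the sequences were seen.

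The early genes lie on 3 chromosomes of GRCm38. Elane (ENSMUSG00000020125) is on the plus strand of chromosome 10 from 79886247 to 79888215, and Prtn3 (ENSMUSG00000057729) ends 3072 bases before it, spanning 79874476 to 79883174 on the same strand. Mpo (ENSMUSG00000009350) is on the plus strand of chromosome 11 from 87793581 to 87804413. Ctsg (ENSMUSG00000040314) is on the minus strand of chromosome 14 from 56099881 to 56102574. The longest coding transcript has 14 exons for Mpo and 5 for each of the proteases. Prtn3 overlaps 159 bases of Plppr3, a gene on the other strand with 162 to 282 counts per library, and its counts are uncertain to that extent since the use of strand in counting is not stated.

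Mpo makes the peroxidase that produces hypochlorous acid in the phagosome, and it was the most abundant early gene by counts. It was counted 29, 283 and 63 times in CBM replicates 1 to 3 and 384, 643 and 86 times in EBM replicates 1 to 3. Scaled to library size with TMM factors, this was 6.56 ± 7.26 CPM over the CBM libraries and 20.8 ± 15.1 CPM over the EBM libraries (n = 3 each, SD). CBM replicate 2 lay above EBM replicate 3, so the regions overlapped, and the highest library, EBM replicate 2, was 21.7-fold above the lowest, CBM replicate 1. The fitted log2 fold change of EBM over CBM was 1.67 ± 0.93. (SE)

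Elane, which encodes the elastase that degrades matrix and microbial proteins, was counted 9, 150 and 19 times in CBM replicates 1 to 3 and 191, 264 and 23 times in EBM replicates 1 to 3. Its level was 3.12 ± 4.14 CPM over the CBM libraries and 8.91 ± 6.76 CPM over the EBM libraries (n = 3 each, SD), a log2 fold change of 1.51 ± 1.12. (SE) EBM replicates 1 and 2 were the highest, and EBM replicate 3 fell below CBM replicate 2. The ratio of Elane to Mpo counts was between 0.267 in EBM replicate 3 and 0.530 in CBM replicate 2.

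Prtn3 was counted 11, 125 and 37 times in CBM and 118, 179 and 56 times in EBM, in the order of the replicate numbers. Its log2 fold change was 1.15 ± 0.78 (SE), the smallest of the early genes. Ctsg was counted 7, 68 and 24 times in CBM and 113, 119 and 37 times in EBM, with a log2 fold change of 1.56 ± 0.75. (SE) For both proteases CBM replicate 2 again exceeded EBM replicate 3, and CBM replicate 1 was the lowest library. Each early gene thus had a higher mean in EBM, with every EBM library above CBM replicates 1 and 3 and the ranges overlapping through CBM replicate 2.

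**Figure D1:**
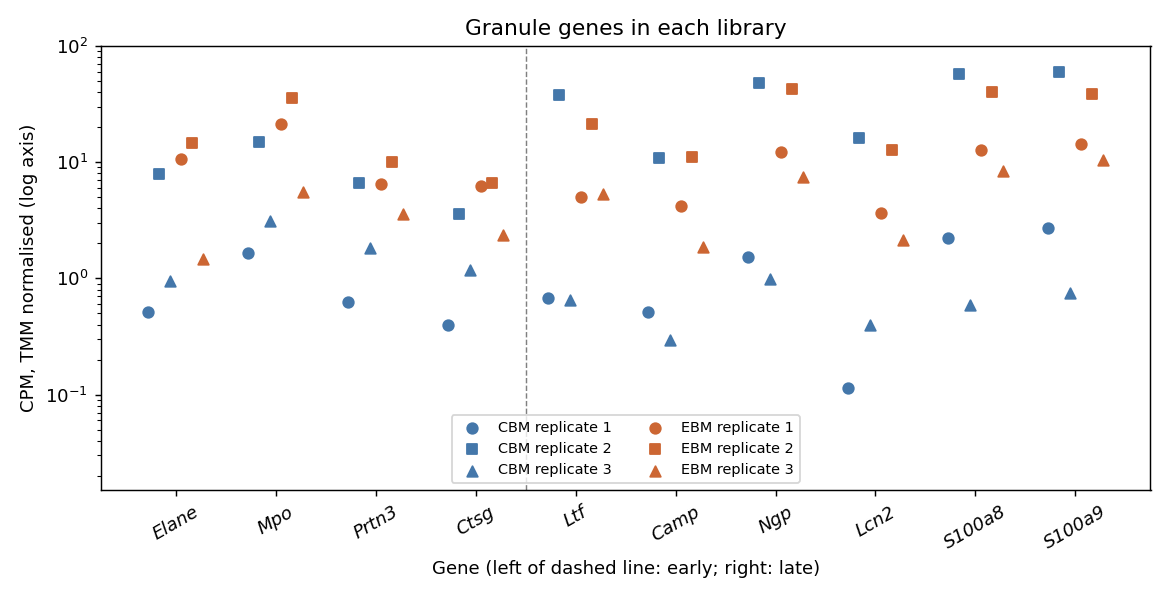
CPM of the 10 granule genes in each of the 6 libraries on a log axis, with colour for the region (blue CBM, orange EBM) and shape for the replicate number. CBM replicate 2 (blue squares) lies among or above the EBM libraries for every gene, while CBM replicates 1 and 3 are the lowest 2 libraries for 10 of 10 genes.

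The late genes lie on chromosomes 2, 3 and 9. Camp (ENSMUSG00000038357) is on the minus strand of chromosome 9 from 109847379 to 109849617. Ngp (ENSMUSG00000032484) is on the plus strand from 110419747 to 110423012 and Ltf (ENSMUSG00000032496) on the plus strand from 111019271 to 111042767. S100a8 (ENSMUSG00000056054) on the plus strand from 90668978 to 90670035 and S100a9 (ENSMUSG00000056071) on the minus strand from 90692632 to 90695721 are neighbours on chromosome 3, with 22596 bases between them. Lcn2 (ENSMUSG00000026822) is on the minus strand of chromosome 2 from 32384633 to 32388252.

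Calprotectin subunits were the most abundant of the 10 genes per length, with means over the 6 libraries of 40.4 CPM per kilobase for S100a9 and 29.1 for S100a8. S100a9 was counted 48, 1135 and 15 times in CBM replicates 1 to 3 and 260, 693 and 161 times in EBM replicates 1 to 3. S100a8 was counted 39, 1084 and 12 times in CBM and 230, 726 and 130 times in EBM. Both genes were highest in CBM replicate 2 and lowest in CBM replicate 3, and the 3 EBM libraries lay between these. In CBM replicate 2 S100a8 was 95.8-fold above CBM replicate 3 (95% interval from 54.6 to 186, exact binomial, counting error only). The ratio of S100a9 to S100a8 counts stayed between 0.955 and 1.25 over all 6 libraries. The regions had nearly equal mean levels, with 21.1 ± 33.5 CPM in CBM and 21.1 ± 15.3 CPM in EBM for S100a9 (n = 3 each, SD), and the difference was a log2 fold change of 0.0024 ± 1.35. (SE) For S100a8 the log2 fold change was 0.04 ± 1.42. (SE)

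Ngp, a cathelicidin-related protein of secondary granules, was counted 27, 910 and 20 times in CBM replicates 1 to 3 and 221, 769 and 116 times in EBM replicates 1 to 3. Camp, the precursor of the antimicrobial peptide CRAMP, was counted 9, 208 and 6 times in CBM and 76, 199 and 29 times in EBM. In both genes replicate 2 of each region was far above the other libraries of that region. Their log2 fold changes were 0.31 ± 1.39 (SE) for Ngp and 0.55 ± 1.27 (SE) for Camp.

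Ltf, which sequesters iron, was counted 12, 725 and 13 times in CBM and 91, 379 and 82 times in EBM. It was the only one of the 10 genes with a lower mean CPM in EBM, at 13.2 ± 21.7 CPM over the CBM libraries and 10.5 ± 9.21 CPM over the EBM libraries (n = 3 each, SD), a log2 fold change of -0.33 ± 1.46. (SE) With library totals in place of TMM factors, S100a9 also turned to the lower side. Ltf itself turned to the higher side with the replicate block (1.41), without CBM replicate 2 (3.97), without EBM replicate 1 (0.016) and in mean log2 CPM (1.56). Lcn2, which binds bacterial siderophores, was counted 2, 305 and 8 times in CBM and 66, 229 and 33 times in EBM. It had the widest range of the 10 genes, 141-fold from CBM replicate 1 to CBM replicate 2 (95% interval from 38.7 to 1170, exact binomial, counting error only), since the low library held 2 counts. The log2 fold change of Lcn2 was 0.16 ± 1.47. (SE)

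**Figure D2:**
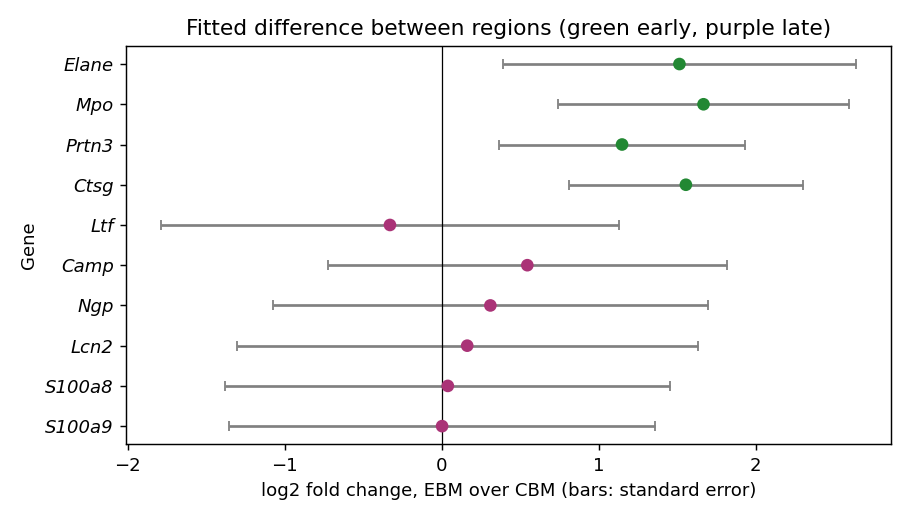
Fitted log2 fold change of EBM over CBM for each gene, with bars for 1 standard error. The 4 early genes lie between 1.15 and 1.67 and the 6 late genes between -0.33 and 0.55. The bars of all the late genes cross 0. Bars of 1 standard error are not a test, and 0 genes of either class had an unadjusted edgeR p under 0.05.

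Early and late genes were then compared within each library. The summed counts of the late genes were 2.45, 6.98 and 0.517 times those of the early genes in CBM replicates 1 to 3 and 1.17, 2.49 and 2.73 times in EBM replicates 1 to 3. In these sums, over 6 late and 4 early genes, late genes thus outweighed early ones in 5 of 6 libraries, and CBM replicate 3 was the exception. In mean log2 CPM per gene, late minus early was negative in CBM replicate 3 (-1.32) and EBM replicate 1 (-0.38) and positive in the other libraries. The widest difference in this balance was between 2 libraries of the same region, CBM replicates 2 and 3. On the scale of mean log2 CPM, late minus early was 0.39 ± 1.72 in CBM and 0.39 ± 0.67 in EBM (SD, n = 3 each), a difference between regions of -0.0018 against a pooled SD of 1.31. On the scale of the fitted fold changes, which compare group mean levels, the mean of the late genes minus that of the early genes was -1.35, with medians of 0.10 for late and 1.53 for early genes. CBM replicate 2 holds nearly all the late counts of its region, and without it the medians were 2.88 for early genes and 3.92 for late genes.

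**Figure D3:**
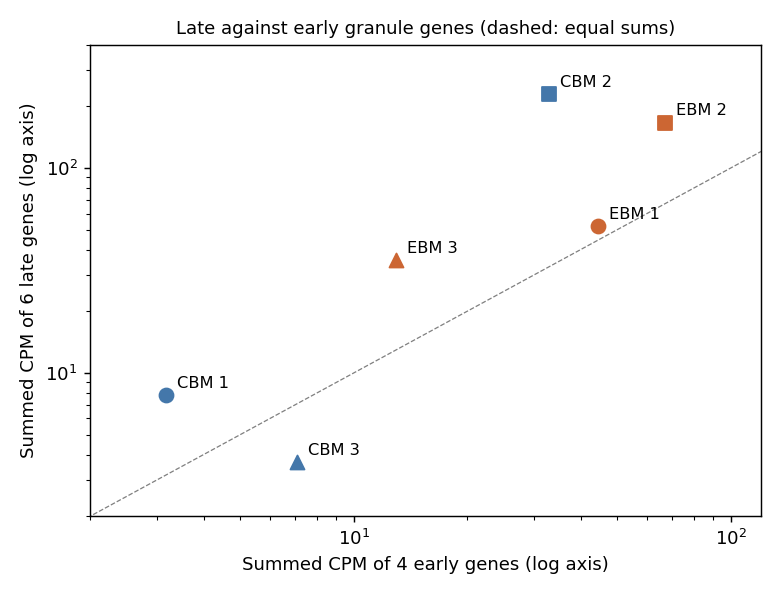
Summed CPM of the 6 late genes against that of the 4 early genes in each library, both on log axes, with a dashed line where the sums are equal. CBM replicate 2 has 230 CPM of late and 33.0 CPM of early genes, EBM replicate 2 has 167 and 67.1 CPM, and CBM replicate 3 is the library below the line, with 3.67 and 7.10 CPM.

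The direction of the fitted fold changes of the late genes depended on single libraries and on the scale, and that of the early genes did not under the fits described here. The fitted values compare group mean levels, to which CBM replicate 2 contributes most. In mean log2 CPM all 6 late genes were higher in EBM, with a median difference of 1.81 beside 1.84 for the early genes, and with the replicate number as a block all 6 were higher as well, with a median of 1.63. Without CBM replicate 2, all 6 late genes were higher in EBM. Without EBM replicate 2, all 6 were lower, with a median log2 fold change of -0.84. Without CBM replicate 1 or without CBM replicate 3, 5 of the 6 late genes were lower in EBM, with medians of -0.45 in both cases. All 4 early genes kept a positive log2 fold change with each of the 6 libraries left out in turn, with values from 0.68 to 3.59, and 0 of the 10 genes were called in any of these fits.

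The order of the libraries was shared by nearly all the genes. EBM replicates 1 and 2 and CBM replicate 2 were the highest 3 libraries for 9 of the 10 genes, with Ltf the exception, where EBM replicate 3 was slightly above EBM replicate 1. CBM replicates 1 and 3 were the lowest 2 libraries for 10 of 10 genes, against 8.49% of all genes tested. Within this shared order the 2 classes differed at the top, because each early gene was highest in EBM replicate 2 and 5 of the 6 late genes were highest in CBM replicate 2. Camp was the remaining late gene, at 11.1 CPM in EBM replicate 2 and 10.9 CPM in CBM replicate 2. They also differed in the low libraries. Relative to their own mean log2 CPM, early genes averaged -2.32 in CBM replicate 1 and -1.23 in CBM replicate 3, while late genes averaged -2.35 and -2.94.

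**Figure D4:**
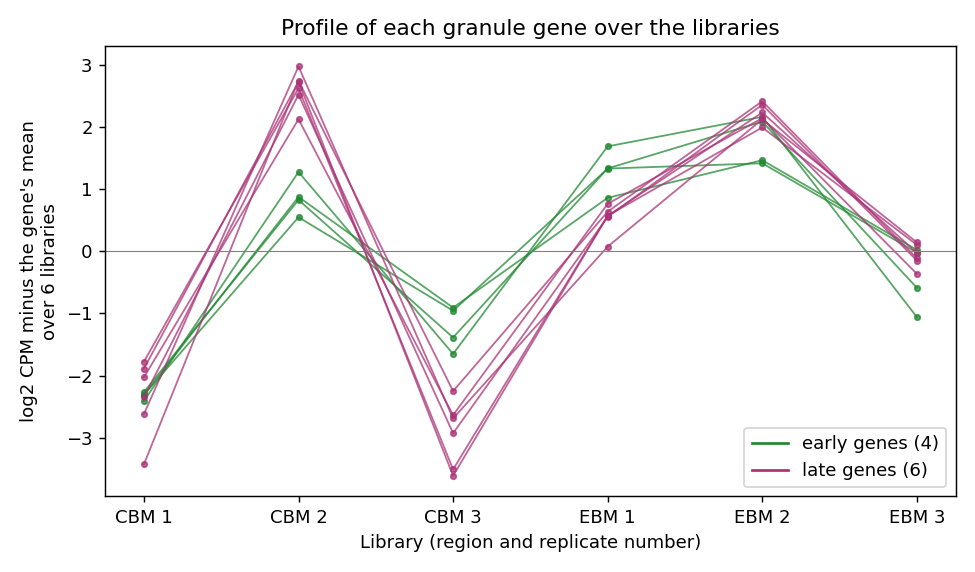
log2 CPM of each gene minus its mean over the 6 libraries, with 1 line per gene (green early, purple late). The lines join libraries only to mark a gene and imply no order, and the late genes reach further up in CBM replicate 2 and further down in CBM replicate 3 than the early genes.

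The proportions within each class changed less than the class totals, though not equally for all genes. Mpo made up between 42.6% and 53.4% of the early counts and Prtn3 between 14.6% and 27.7%. Elane ranged from 11.4% to 24.0% and Ctsg from 9.88% to 18.3%. Among the late genes, Ngp made up between 19.7% and 27.0% of the counts, S100a8 between 16.2% and 28.5% and S100a9 between 20.3% and 35.0%. Ltf ranged from 8.76% to 17.6%, Camp from 4.76% to 8.11% and Lcn2, the least stable, from 1.46% to 10.8%. The extremes of the S100 genes and of Lcn2 fell in CBM replicates 1 and 3, whose late counts totalled 137 and 74.

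Set against all genes tested, the 10 genes were among the most variable, which was known when they were chosen and is a description only. The SD of log2 CPM over the 6 libraries was between 2.04 and 2.47 for the late genes, which ranked between 10 and 43 of 13352, and between 1.40 and 1.94 for the early genes, which ranked between 63 and 200. The median over all genes tested was 0.24, and 3.78% of them had an SD above 1. The levels of the granule genes were in contrast ordinary. By CPM per kilobase S100a9 ranked 1406 of 13352 and Lcn2, the lowest with 2.23 CPM per kilobase, ranked 9631.

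Genes beside Camp, Ngp, Ltf, Prtn3 and Elane on the chromosome varied less than these genes. Between Camp and Ltf, a stretch of 1195389 bases, 16 other genes were tested, and their SDs had a median of 0.23 and a highest value of 0.72, for Nbeal2. Around Prtn3 and Elane, with 50 kb added on each side, 8 other genes had a median SD of 0.24. The highest of these was 0.87, for Gm19810, which starts close behind Elane on the same strand and had a mean of 1.46 CPM. Plppr3, the gene overlapping Prtn3, had an SD of 0.27. Around S100a8 and S100a9, with 50 kb on each side, 0 other genes were tested. The surroundings of Mpo, Ctsg and Lcn2 were not examined.

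Other genes of neutrophil granules were taken from lists written from general knowledge. None of the genes on the lists below was called at an adjusted p under 0.05 by edgeR. Of the other secondary granule genes, 7 of 14 were counted highly enough to be tested, 4 with a higher and 3 with a lower mean in EBM and a median log2 fold change of 0.08, beside 0.0017 over all genes tested. For 6 of these 7 genes CBM replicates 1 and 3 were the lowest 2 libraries. Chil3, a chitinase-like protein, was counted 6, 135 and 14 times in CBM and 82, 355 and 34 times in EBM. Cd177, a surface protein of neutrophils that is stored in secondary granules, was counted 1, 171 and 2 times in CBM and 27, 88 and 11 times in EBM. Cybb, the large subunit of the phagocyte NADPH oxidase, was counted 2, 144 and 2 times in CBM and 30, 97 and 18 times in EBM, and Hp (haptoglobin) 8, 95 and 3 times in CBM and 38, 80 and 20 times in EBM. These genes, of which Cd177 and Cybb are named after their values were seen, were thus high and low in the same libraries as the late genes. The exception was Cyba, the small oxidase subunit, which is widely expressed. It was at 138 ± 26.6 CPM over the CBM libraries and 171 ± 18.4 CPM over the EBM libraries (n = 3 each, SD), and its SD over the libraries was 0.27 on the log2 scale.

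The other primary granule genes were less uniform, with 9 of 10 tested, 7 with a higher and 2 with a lower EBM mean, and the median of their log2 fold changes was 0.35. The unadjusted p was under 0.05 for 0 genes on the higher and 1 gene on the lower side. The lower gene was Gusb, a lysosomal glucuronidase, at 72.3 ± 9.15 CPM over the CBM libraries and 57.2 ± 4.24 CPM over the EBM libraries (n = 3 each, SD), with a log2 fold change of -0.34 ± 0.12 (SE) and an edgeR adjusted p of 0.565. Srgn, the proteoglycan core that packs proteases into granules, was the most abundant gene of this list, with 23144, 15723 and 19768 counts in CBM and 28427, 25287 and 15877 in EBM. Cst7, a cysteine protease inhibitor, was counted 1158, 259 and 710 times in CBM and 1182, 876 and 326 times in EBM. Both were lowest in CBM replicate 2, unlike the granule genes. Prss57, a serine protease of primary granules related to elastase, was counted at most 33 times in any library and was lower in the EBM mean, with a log2 fold change of -0.88 ± 0.46 (SE) (edgeR adjusted p = 0.701). Lyz2, lysozyme, which is also made by macrophages, was counted 14, 351 and 20 times in CBM and 57, 333 and 39 times in EBM, in the manner of the late genes, and is named after its values were seen.

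Markers of mature neutrophils and of tertiary granules were mostly too low to test, since 6 of 16 passed the filter. Retnlg, a resistin-like protein of mature neutrophils, was counted 2, 176 and 1 times in CBM and 10, 115 and 16 times in EBM, and Mmp9, the gelatinase of tertiary granules, 3, 161 and 1 times in CBM and 15, 57 and 7 times in EBM. Ly6g, the defining surface marker of mouse neutrophils, was counted 0, 18 and 0 times in CBM and 0, 4 and 1 times in EBM. The receptor Cxcr2 was counted 2, 20 and 1 times in CBM and 3, 2 and 1 times in EBM. Mmp9, Ly6g and Cxcr2 are named after their values were seen. Of all 16 genes on the list, 11 had their highest CPM in CBM replicate 2, 3 in EBM replicate 2 and 2 in EBM replicate 1. Of the 6 tested, 3 had CBM replicates 1 and 3 as their lowest libraries, and 2 had CBM replicate 2 and EBM replicates 1 and 2 as their highest 3. Their part in the granule gene levels was not tested. In bulk RNA, a change in the number of cells of a type and a change in the RNA per cell cannot be told apart.

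Il1b, an inflammatory cytokine that is on the same list but is not a granule gene, showed another pattern. It was counted 580, 95 and 169 times in CBM and 3770, 3048 and 993 times in EBM, so the lowest EBM library exceeded the highest CBM library, which held for 7.47% of all genes tested in this direction. Its log2 fold change was 3.26 ± 0.79 (SE), an edgeR adjusted p of 0.331 and a DESeq2 adjusted p of 0.0351. CBM replicate 2, the library highest in late granule genes within its region, was the lowest in Il1b. The summed level of the whole list was between 15.1 and 43.8 CPM in CBM and between 72.7 and 223 CPM in EBM and came mostly from Il1b in the 5 libraries other than CBM replicate 2. Clec4d, a myeloid lectin receptor, was counted 108, 34 and 75 times in CBM and 129, 110 and 35 times in EBM.

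Transcription factors that drive granulocyte development were described beside their targets. Of 13 such genes 10 were tested, 7 with a higher and 3 with a lower EBM mean, the median of the log2 fold changes was 0.21, and 0 had an unadjusted p under 0.05. Spi1, which encodes PU.1, was at 84.7 ± 14.7 CPM over the CBM libraries and 96.9 ± 8.74 CPM over the EBM libraries (n = 3 each, SD), with a log2 fold change of 0.19 ± 0.15 (SE) (edgeR adjusted p = 0.837). Its SD over the libraries was 0.22, so it ranked 7260 of 13352 in spread. Runx1, the gene of the core-binding factor that is also part of the fusion, was at 512 ± 198 CPM in CBM and 497 ± 123 CPM in EBM, and Myb at 315 ± 7.20 and 302 ± 44.2 CPM. Runx1 was lowest in CBM replicate 2 and EBM replicate 3, with 6274 and 5767 counts.

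The C/EBP genes were by contrast low. Cebpb was counted 10, 26 and 4 times in CBM and 13, 31 and 10 times in EBM, and Cebpd 19, 11 and 22 times in CBM and 24, 28 and 8 times in EBM. Cebpe, which drives secondary granule genes in myelocytes, was counted 2, 12 and 0 times in CBM and 12, 10 and 3 times in EBM. Cebpa, needed for the entry into the granulocyte lineage, was counted 1, 13 and 0 times in CBM and 1, 11 and 3 times in EBM and did not pass the filter on low counts. Gfi1, a repressor required for neutrophil maturation, stayed between 1 and 8 counts, while its relative Gfi1b, which acts in erythroid and megakaryocyte cells, was at 216 ± 94.2 CPM over the CBM libraries and 201 ± 131 CPM over the EBM libraries (n = 3 each, SD). Irf8, a factor of the monocyte lineage, was counted 2, 19 and 3 times in CBM and 6, 27 and 29 times in EBM. Cebpb, Cebpd, Cebpe, Cebpa and Gfi1 are named after their values were seen.

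Markers of other cell types were measured in the same libraries, and their part in the granule gene levels was not tested. Among markers of immature cells, Kit was at 220 ± 8.15 CPM over the CBM libraries and 220 ± 22.1 CPM over the EBM libraries (n = 3 each, SD). Its SD over the libraries was 0.10 on the log2 scale, but Kit alone cannot check the label of leukemia cells. Cd34 was counted 270, 22 and 98 times in CBM and 297, 188 and 19 times in EBM. The SD of Cd34 over the libraries was 1.69. Of 8 markers of immature cells, 3 were tested, and 2 had at most 3 counts in any library. The mean centred log2 CPM of the 3 tested was -1.05 in CBM replicate 2, -1.10 in EBM replicate 3 and 0.87 in EBM replicate 1. Summed monocyte and macrophage markers were between 17.7 and 25.3 CPM in CBM and between 16.1 and 43.3 CPM in EBM, with 5 of 10 tested. Of these 5, 4 had a higher and 1 a lower EBM mean. Among them Ly6c2 was counted 12, 77 and 12 times in CBM and 61, 131 and 17 times in EBM, and F13a1 2, 21 and 7 times in CBM and 6, 99 and 11 times in EBM. Ccr2 was counted 308, 179 and 239 times in CBM and 313, 368 and 134 times in EBM. Cd68 was counted 109, 99 and 81 times in CBM and 66, 66 and 54 times in EBM. Its CBM libraries all lay above its EBM libraries, which held for 7.65% of all genes tested in this direction. Erythroid markers, 10 of 10 tested, were abundant, with sums between 5198 and 10570 CPM in CBM and between 6137 and 9076 CPM in EBM, and CBM replicate 2 held the highest of these sums. Eosinophil and basophil markers, 6 of 13 tested, summed to between 154 and 508 CPM in CBM and between 103 and 447 CPM in EBM, and most of the sum came from Cpa3, Fcer1a and Siglecf. Cpa3, the mast cell carboxypeptidase, was counted 3938, 71 and 892 times in CBM and 3800, 3229 and 81 times in EBM. Of the 13 genes on this list, 8 had their highest CPM in CBM replicate 2. Among them Prg2, the major basic protein of eosinophil granules, was counted 6, 233 and 3 times in CBM and 16, 19 and 4 times in EBM, and Epx, eosinophil peroxidase, 0, 66 and 0 times in CBM and 1, 5 and 2 times in EBM. Ear1, an eosinophil ribonuclease, was counted 0, 30 and 1 times in CBM and 0, 1 and 0 times in EBM. For 3 of the 13 genes the highest CPM was instead in CBM replicate 1, among them Siglecf. Siglecf was counted 3040, 2244 and 2861 times in CBM and 2429, 2625 and 1399 times in EBM. Il5ra stayed between 28 and 35 counts in all libraries. Epx, Ear1 and Il5ra are named after their values were seen. Stromal and endosteal markers, 3 of 12 tested, included 1 gene at 0 in all libraries and 4 genes with at most 3 counts anywhere, and their sum of 266 to 575 CPM was mostly Acp5.

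**Figure D5:**
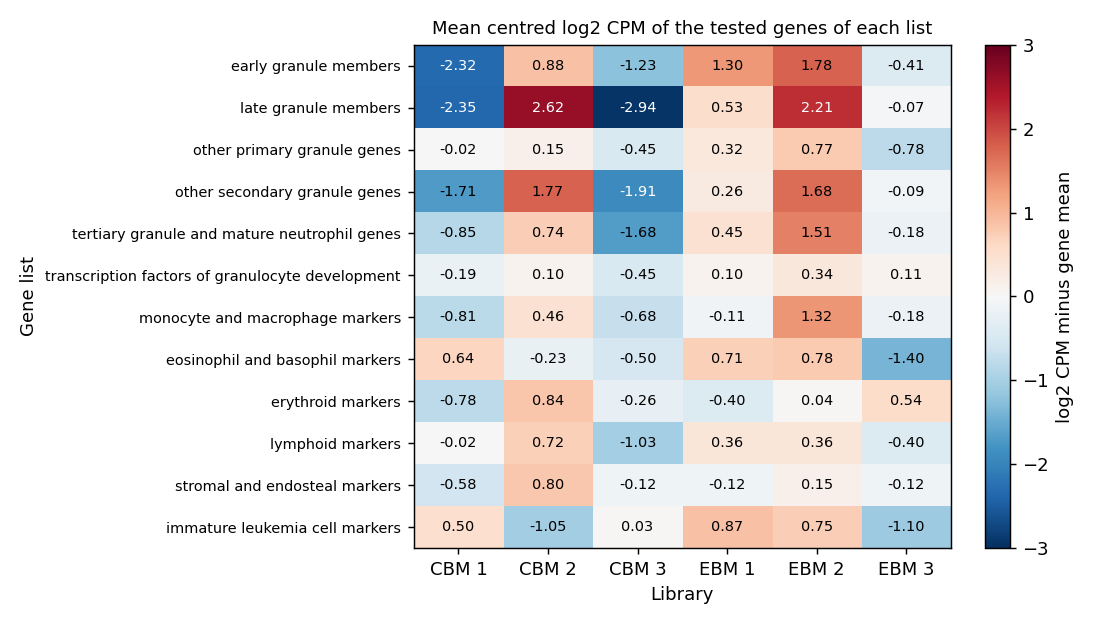
Mean, over the tested genes of each list, of log2 CPM minus the gene's own mean, in each library (red above and blue below the mean). The late genes and the other secondary granule genes share the contrast of CBM replicate 2 and EBM replicate 2 (2.62 and 2.21 for the late genes, 1.77 and 1.68 for the other list) with CBM replicates 1 and 3 (-2.35 and -2.94, and -1.71 and -1.91).

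The lymphoid marker list, with 4 of 10 tested, 4 genes with at most 3 counts anywhere and 1 at 0 throughout, summed to between 11.8 and 16.7 CPM in CBM and between 9.64 and 15.1 CPM in EBM. Ighm on this list was counted 3, 130 and 3 times in CBM and 12, 21 and 40 times in EBM. Cd79b, the most abundant tested gene of the list, was counted 242, 131 and 220 times in CBM and 205, 148 and 98 times in EBM. Nkg7 was counted 33, 16 and 4 times in CBM and 35, 36 and 2 times in EBM. Of the 4 tested, 2 had a higher and 2 a lower EBM mean. A search over the 8702 genes outside all the lists with a mean of at least 10 CPM gave Igha, the constant region of immunoglobulin A made by plasma cells, as the gene nearest to both granule profiles. Igha was counted 17, 900 and 40 times in CBM and 383, 572 and 133 times in EBM, and its centred log2 CPM differed from the mean profile of the late genes by a root mean square of 0.56 and from that of the early genes by 0.79. A flat gene would differ from the late profile by 2.09 and from the early profile by 1.46. Other near genes were farther away, Ypel4 at 1.54, Tent5c and Ttc39aos1 at 1.57 and Tmcc2 at 1.59 for the late profile (Ttc39aos1 is an antisense gene and uncertain without strand), and Mxd1 at 0.97, Btn1a1 at 1.02 and Etfdh at 1.04 among those for the early profile. When genes of any level were searched, a choice made after seeing the data, the nearest to the late profile were Ifitm6, Igkc and Anxa1, at 0.47, 0.48 and 0.52. The nearest to the early profile was Plac8, at 0.24, counted 5, 66 and 18 times in CBM and 63, 92 and 21 times in EBM. Igkc, the constant region of the kappa light chain, was counted 16, 429 and 16 times in CBM and 198, 249 and 86 times in EBM.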

How the data were processed

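RNA was extracted from isolated AE9a leukemia cells, and directional libraries were made from rRNA-depleted RNA and sequenced as paired-end reads. The authors deposited 1 table of raw counts per gene for 6 libraries, without normalization, and the submitters' processing notes name HISAT2 2.0.5 and mm10. The counting tool, the annotation and the use of strand are not given in the sources used here. The 10 granule genes have the same coordinates in GENCODE M21 (GRCm38). The deposited gene length was used as given for CPM per kilobase.

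Genes were kept by filterByExpr (13352 of 54532), normalized by TMM and tested with the quasi-likelihood F-test of edgeR 4.0.16 with Benjamini-Hochberg adjustment at 0.05, without a block, after the unpaired tests of the study. Standard errors were taken from the fit, as the size of the log2 fold change over the root of its F statistic. log2 CPM used a prior count of 2. DESeq2 1.42.0 was run as an alternative. In simulated counts for 13352 genes, 48.5% of true log2 changes of 1, 76.8% of those of 2 and 98.5% of those of 3 were recovered by edgeR. The simulated counts had the dispersion trend of the fit and no excess spread for single genes. The granule genes varied far more than most genes, so these shares do not apply to them.

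The members and lists were chosen with earlier results of these data known. Named genes were the 10 members, the 3 with the highest CPM per kilobase and the 2 with the smallest p of each list as candidates, and the 5 nearest in pattern to each class among genes of at least 10 CPM, while genes outside the rule are marked in the text. 1 gene that the rule gives is not reported here. A floor of 3 counts is between 0.154 and 0.183 CPM, and intervals and floors cover counting error only. Between libraries of a group the chi-square per degree of freedom was 11.9 or more, so none was a duplicate. GEO labels give no batch.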

Additional observations from a re-analysis of the deposited data

How the results depend on the processing

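The count of 0 genes called became 175 with DESeq2 and 40 without a filter on low counts, and stayed at 0 with other size factors and with each library left out (lowest 0, highest 0), with 0 of the 10 granule genes called under every alternative run. The difference of late minus early between the regions, -0.0018 in mean log2 CPM, was -1.35 on the scale of fitted fold changes with edgeR (an alternative added after the data were seen) and -1.35 with DESeq2, which compare group means. With each library left out it was between -0.86 and 0.87, and it was -0.05 from summed CPM and 0.05 with a prior count of 0.5. Same-numbered libraries did not deviate together throughout, with r of 0.68, -0.20 and 0.20 for numbers 1, 2 and 3 across the genes tested. CBM replicate 2 and EBM replicate 3 had an r of 0.51. These values cannot settle pairing, since they rest on deviations from the mean of 3 libraries. The labels state no pairs, so the numbers were not taken as pairs. With the replicate number as a block, 0 genes were called, late minus early was -0.11 on the scale of fitted fold changes, and the late genes had a median log2 fold change of 1.63 in place of 0.10. The log2 fold changes of 8 of the 10 genes moved by more than the SD between replicates without CBM replicate 2, and of none under the other alternatives, among them the difference of mean log2 CPM, which was also added after the data were seen. At this depth genes with single counts, such as Lcn2 in CBM replicate 1, are known only within wide counting intervals.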
